A study of Rattus norvegicus with 9 samples.

Results

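The genes of the BCL2 family that set whether a mitochondrion is opened during apoptosis were followed in the kidneys of 9 rats. The 10 genes, chosen by symbol, were the guardians Bcl2, Bcl2l1 and Mcl1, the effectors Bax and Bak1, and the BH3-only genes Bid, Bik, Bmf, Bbc3 and Bcl2l11. Of these 10, 8 had a row under their symbol among the 36267 features of the deposited expression table, and Mcl1 and Bbc3 are not analysed here. A total of 7 were tested, since Bik fell below the minimum of 1 CPM (the reads of a gene scaled to the same total in each library) in at least 3 libraries. Each of the other 7 was above 1 CPM in all 9 libraries, so none entered the test through 1 group alone.

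The rats weighed 180 to 200 g and formed 3 groups of 3 animals, with 1 RNA library from the kidney of each. Control rats are labelled as having no treatment. Rats of the contrast-induced acute kidney injury group (CIAKI) had the loop diuretic furosemide instilled into the stomach (200 mg/kg) and were dehydrated for 6 h, after which iopromide, a contrast agent for X-ray imaging with 370 mg iodine per mL, was injected into a vein at 15 mL/kg. Rats of the icariin group received icariin, a plant flavonoid glycoside, at 100 mg/kg into the stomach on each of 3 days and then the same furosemide and iopromide protocol. CIAKI and icariin rats therefore both carry diuretic, dehydration and contrast, and no group received icariin or furosemide alone. The labels give no strain, sex, age or time at which the kidneys were taken.

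BCL2 proteins meet at the outer mitochondrial membrane. Guardians such as BCL2 and BCL-xL (the main product of Bcl2l1) bind and hold back the pore-forming effectors BAX and BAK, while BH3-only proteins either occupy the guardians or activate the effectors directly. Once effectors form pores, cytochrome c leaves the mitochondrion and starts the caspase cascade, a route of tubular cell death in many forms of acute kidney injury. Much of this control acts on the proteins, through binding, phosphorylation, cleavage and turnover, which RNA levels do not show.

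The libraries held 64380578 to 90398405 reads. The 11 markers of kidney tubule and glomerulus, the labelled tissue, all had a row and summed to 23125 to 24420 CPM in control, 11245 to 14118 CPM in CIAKI and 22547 to 22980 CPM in icariin libraries. After contrast 7 of the 11 were lower, 1 (Aqp2) was higher and 3 (Cubn, Slc5a12 and Slc12a1) did not pass. The 5 tubular injury markers (Havcr1, Lcn2, Spp1, Clu and Timp1) summed to 207 to 467 CPM, 1896 to 6067 CPM and 275 to 554 CPM. Lymphocyte markers, of which 11 of 12 had a row, summed to 49.99 to 54.6 CPM, 12.6 to 17.5 CPM and 27.0 to 44.9 CPM; the B cell gene Ms4a1 was at 0 in every CIAKI library and in at least 1 library of each other group. The 9 macrophage markers summed to 115 to 124 CPM, 70.3 to 121 CPM and 102 to 138 CPM, and 6 of 8 erythroid markers with a row summed to 398 to 1585 CPM, 2249 to 2788 CPM and 412 to 1595 CPM. The 7 neutrophil markers summed to at most 5.35 CPM in any library, with Elane at 0 throughout. The ranges of the injury, lymphocyte, erythroid and summed kidney markers in CIAKI did not overlap with those in control, while the summed macrophage ranges overlapped in all 3 groups and the neutrophil ranges of control and CIAKI overlapped. The macrophage sum joins genes that moved in opposite directions. After contrast, Adgre1 (log2 change -1.84) and Csf1r (-0.96) were lower and Mrc1 (0.95) was higher, and 5 of the 8 tested did not pass. In the erythroid sum, Hbb, Hba-a1 and Hba-a2 were higher after contrast, while Slc4a1 (log2 change -0.09) and Alas2 (1.91) did not pass. The sixth gene, Ahsp, added at most 3.28 CPM. The part of these levels in the results below was not tested. In whole kidney RNA, fewer cells of a type and less RNA per cell cannot be told apart.

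The RefSeq promoter table (GRCr8) covered 7 of the 10 genes, 6 of them with a row. Shown here are the 250 bases before the start site for the 4 genes of that table that passed the test in at least 1 comparison. The base before the start site is counted as -1. Capitals mark exact matches to a motif, and each sequence is read 5′ to 3′ on the minus strand, on which all 4 genes lie. The searched motifs reported here were the GC box GGGCGG, the GAS element TTCNNNGAA, the FOXO site GTAAACA, the E-box CACGTG, the cyclic AMP response element TGACGTCA and the TATA box TATAAA.
Bcl2l1, farthest upstream of 4 listed start sites, chr3:161764776-161765025: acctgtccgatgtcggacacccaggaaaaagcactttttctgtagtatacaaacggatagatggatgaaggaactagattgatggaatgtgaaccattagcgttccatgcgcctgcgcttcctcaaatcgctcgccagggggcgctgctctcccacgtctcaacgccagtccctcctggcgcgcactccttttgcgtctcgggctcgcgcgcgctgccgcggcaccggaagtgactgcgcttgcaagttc
Bak1, chr20:5110975-5111224: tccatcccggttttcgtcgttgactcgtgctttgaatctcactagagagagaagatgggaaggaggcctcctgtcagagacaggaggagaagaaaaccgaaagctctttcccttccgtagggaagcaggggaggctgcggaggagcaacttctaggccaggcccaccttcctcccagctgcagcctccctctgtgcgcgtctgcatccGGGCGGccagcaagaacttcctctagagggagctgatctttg
Bcl2, chr13:23366901-23367150: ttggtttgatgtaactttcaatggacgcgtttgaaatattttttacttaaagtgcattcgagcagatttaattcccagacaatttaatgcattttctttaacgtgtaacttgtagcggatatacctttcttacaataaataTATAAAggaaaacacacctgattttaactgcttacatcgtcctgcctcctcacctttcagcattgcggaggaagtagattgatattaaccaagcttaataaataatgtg
Bmf, chr3:125974065-125974314: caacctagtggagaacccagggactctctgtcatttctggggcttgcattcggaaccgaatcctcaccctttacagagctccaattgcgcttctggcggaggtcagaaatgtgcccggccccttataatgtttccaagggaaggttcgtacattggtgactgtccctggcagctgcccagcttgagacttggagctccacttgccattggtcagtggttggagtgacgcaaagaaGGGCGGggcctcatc
Among the windows shown, that of Bcl2 had 33.6% G and C, against 57.6% in Bcl2l1 and Bak1 and 55.2% in Bmf. The contrast with Bcl2l1 depends on the start site, as its other listed sites had windows of 41.2%, 51.2% and 60%. The Bcl2 window held a TATAAA from -109 to -104. Bak1 held a GGGCGG from -42 to -37 and Bmf held one from -15 to -10, while the Bcl2l1 window held none of the searched letters.

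Farther downstream, Bcl2l1 carried a pair of GAS matches, the letters that STAT factors bind, shown here with 8 bases to each side because this guardian had the smallest adjusted p of the family in both comparisons with CIAKI. The second listed start site has them from -94 to -86 and from -13 to -5. The window of the first listed start site overlaps with it and holds the same 2 sites, from -229 to -221 and from -148 to -140.
Bcl2l1 first GAS match, chr3:161763463-161763487: aaaggcatTTCGGAGAAaagggggt
Bcl2l1 second GAS match, chr3:161763382-161763406: aatttgacTTCATTGAAgtctctta
On both strands, with palindromes counted once and over 250 bases before to 50 after the start, GAS letters were found in 8.87% of 33469 RefSeq promoters, the GC box in 33.1%, TATAAA in 14.2% and the FOXO site in 3.78%. These shares are per promoter, whereas Bcl2l1 had 4 promoters searched. The promoter of Bcl2l11, a FOXO target in other tissues, held a GTAAACA from -204 to -198 and GC boxes from -188 to -183 and from -51 to -46, and that of Bid held 3 GC boxes. No window of the listed genes held the E-box (6.42% of promoters) or the cyclic AMP element (1.83%). A match describes these letters only, and reads counted per gene do not tell which start site was used.

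Differences between groups were estimated with limma on log2(CPM + 1) over 16731 features, and a gene was called where its Benjamini-Hochberg adjusted p was below 0.05. After contrast, 4 of the 7 tested BCL2 family genes were called against control. Bcl2l1 and Bax rose, and Bcl2 and Bmf fell. Over all features 41.3% were called, 20.8% higher and 20.5% lower, so the share of the family is to be read against a background in which a large part of the measured kidney RNA differed. Values of the groups did not overlap for those 4 genes, against 53.4% of all features. The median absolute log2 change was 0.48 over the 7 genes and 0.33 over all features. The number of called family genes was 2 without control library 2, control library 3 or CIAKI library 2.

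Against CIAKI, icariin kidneys differed in 5 of the 7 tested genes, with Bcl2 and Bmf higher and Bcl2l1, Bax and Bak1 lower. The background was 39.4% of all features called, 19.2% higher and 20.2% lower. The groups did not overlap for 5 genes, namely Bcl2, Bmf, Bcl2l1, Bax and Bid, against 50.7% of all features. The median absolute log2 difference was 0.57 over the 7 genes and 0.32 over all features. Only 2 were called when CIAKI library 1, CIAKI library 2, icariin library 1 or icariin library 2 was left out. This comparison shares the CIAKI libraries with the preceding one, so the 2 are not independent, and the values of each are given side by side below.

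**Figure D1:**
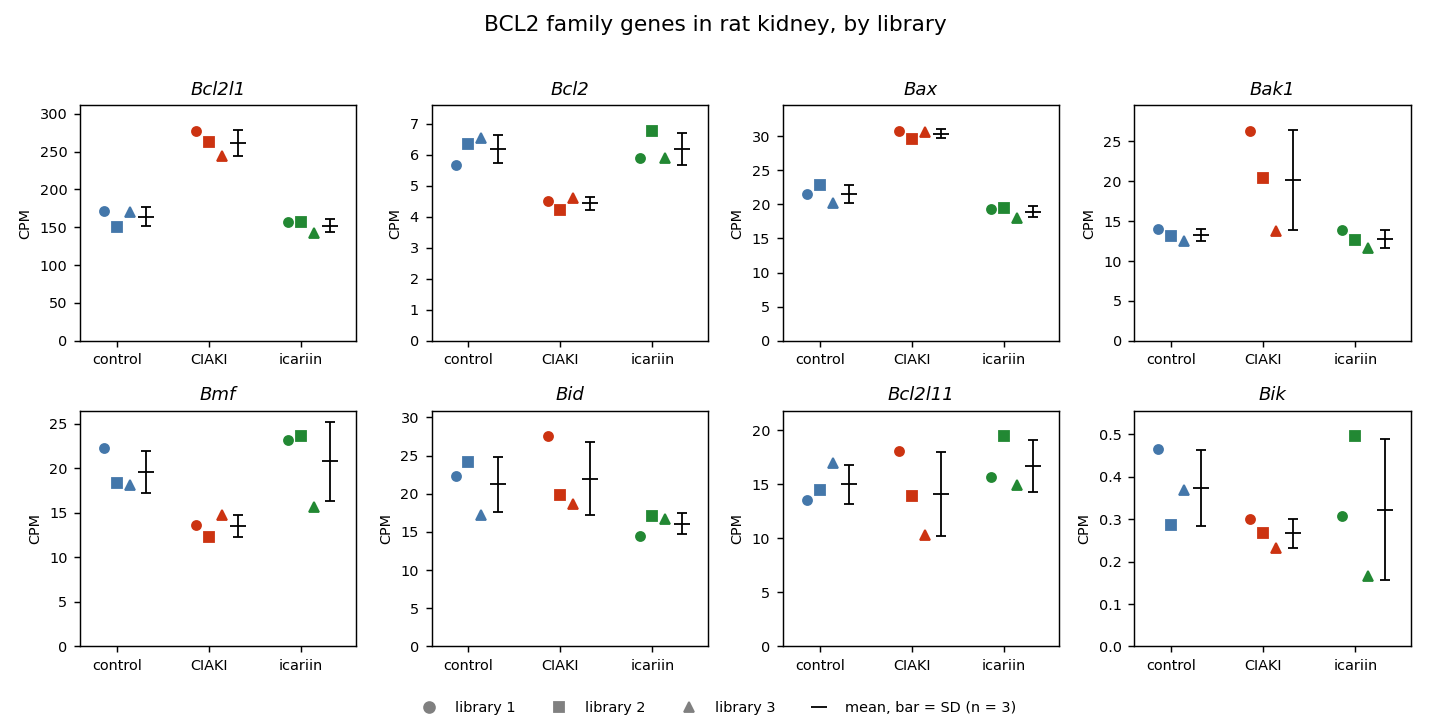
CPM (vertical axes from 0) of the 8 BCL2 family genes with a row, by group; each point is 1 library (circle, square and triangle for libraries 1, 2 and 3) and bars show the mean and SD over 3 libraries. CIAKI libraries lie apart from both other groups for Bcl2l1, Bax, Bcl2 and Bmf, and Bak1, from 13.7 to 26.3 CPM, has the largest CIAKI spread relative to its mean (coefficient of variation 31.3%).

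Among guardians, Bcl2l1 (ENSRNOG00000007946) encodes BCL-xL, which binds BAX, BAK and the BH3-only proteins, and by splicing also a short form that favours death; reads counted per gene do not separate them. It stood at 172, 150 and 171 CPM in control libraries 1 to 3, at 278, 262 and 244 CPM in CIAKI libraries and at 157, 156 and 142 CPM in icariin libraries. All CIAKI libraries were above all others, while control and icariin libraries overlapped. Group means were 164 ± 12.2, 261 ± 16.8 and 152 ± 8.39 CPM (SD, n = 3). Bcl2l1 rose after contrast by 0.67 on the log2 scale (SE 0.08, adjusted p = 0.000345) and was lower in icariin than in CIAKI kidneys by a log2 difference of -0.78 (SE 0.08, adjusted p = 0.000206). It kept both calls in all 22 alternative settings, with adjusted p up to 0.00187 and 0.00136. These values rest on 10276 to 23084 reads per library.

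Bcl2 (ENSRNOG00000002791), the founding guardian and the target of BH3-mimetic drugs, moved the other way at a much lower read count of 283 to 533 per library. Its values were 5.67, 6.35 and 6.55 CPM in control, 4.51, 4.21 and 4.61 CPM in CIAKI and 5.90, 6.78 and 5.90 CPM in icariin libraries. Every CIAKI library was below every control and icariin library. Means were 6.19 ± 0.461, 4.44 ± 0.212 and 6.19 ± 0.509 CPM (SD, n = 3). Bcl2 fell after contrast by 0.40 on the log2 scale (SE 0.12, adjusted p = 0.0267) and was higher by 0.40 in icariin than in CIAKI kidneys (SE 0.12, adjusted p = 0.0282). Leaving out control library 2, control library 3 or CIAKI library 2 ended the call against control (adjusted p = 0.0762, 0.0903 and 0.0596), and leaving out CIAKI library 1, CIAKI library 2, icariin library 1 or icariin library 2 ended the call between icariin and CIAKI (0.0516, 0.0624, 0.0538 and 0.0996). Quantile normalization ended both, with log2 differences of -0.24 (adjusted p = 0.116) and 0.26 (adjusted p = 0.0969).

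The effectors were both highest in CIAKI, with very different spread. Bax (ENSRNOG00000020876), which sits in the cytosol until activated and then forms pores in the outer membrane, had 21.5, 22.8 and 20.2 CPM in control, 30.8, 29.6 and 30.6 CPM in CIAKI and 19.3, 19.5 and 18.0 CPM in icariin libraries. None of the 3 groups overlapped, in the order icariin, control, CIAKI. Means were 21.5 ± 1.32, 30.3 ± 0.638 and 18.9 ± 0.820 CPM (SD, n = 3). Bax rose after contrast by 0.48 on the log2 scale (SE 0.08, adjusted p = 0.00169) and was lower in icariin than in CIAKI by -0.65 (SE 0.08, adjusted p = 0.000445). Both calls held in all 22 alternative settings, with adjusted p up to 0.00935 and 0.00295. The step between icariin and control was -0.17 (95% interval -0.36 to 0.01, adjusted p = 0.517).

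Bak1 (ENSRNOG00000000485), the effector that is anchored in the mitochondrial membrane, stood at 14.1, 13.2 and 12.5 CPM in control, 26.3, 20.4 and 13.7 CPM in CIAKI and 13.9, 12.7 and 11.7 CPM in icariin libraries. CIAKI libraries 1 and 2 were above all others, whereas CIAKI library 3 lay within the range of the control libraries and of the icariin libraries. The CIAKI coefficient of variation was 31.3% for Bak1 and 2.10% for Bax. The log2 difference between CIAKI (20.2 ± 6.31 CPM) and control (13.3 ± 0.769 CPM) was 0.53 (SE 0.20, 95% interval 0.08 to 0.97) and did not pass (adjusted p = 0.0591). It was called in 6 of 22 settings, among them without CIAKI library 3 (0.77, adjusted p = 0.00355), with edgeR (adjusted p = 0.0399) and with DESeq2 (adjusted p = 0.0152). Between icariin (12.8 ± 1.14 CPM) and CIAKI it was -0.58 (SE 0.20, adjusted p = 0.0434), a call that was lost in 12 of 22 settings, including when any library other than CIAKI library 3 was left out (adjusted p = 0.0598 to 0.122).

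The injury marker Havcr1, which encodes the tubular protein KIM-1, differed among the CIAKI libraries as well, with 742, 419 and 229 CPM in CIAKI libraries 1, 2 and 3. It was 0.529 to 1.25 CPM in control and 1.35 to 2.63 CPM in icariin libraries. Among the CIAKI libraries, library 1 was highest and library 3 lowest for Havcr1 and also for Bak1, Bid, Bcl2l11, Bcl2l1 and Bik, but not for Bax, Bcl2 or Bmf. The part of injury in the spread of these genes was not tested.

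**Figure D2:**
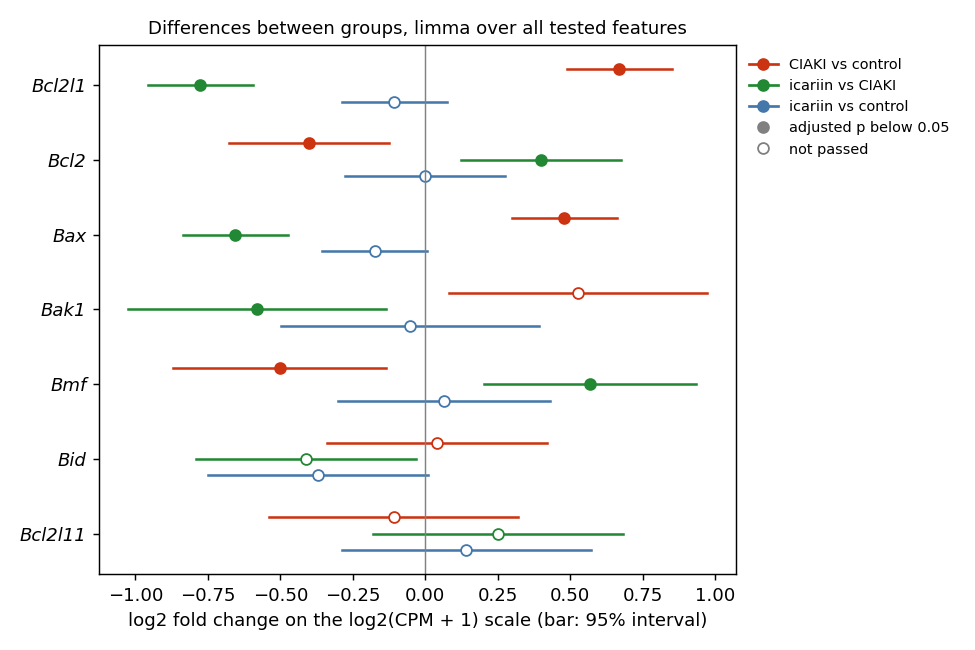
Log2 fold changes on the log2(CPM + 1) scale (horizontal axis) of the 7 tested BCL2 family genes, with 95% intervals as bars and filled points where the adjusted p was below 0.05. Bcl2l1 and Bax lie to the right of 0 in CIAKI against control and to the left in icariin against CIAKI, Bcl2 and Bmf show the opposite placement, and no point is filled for icariin against control.

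Among BH3-only genes, Bmf was the one that passed the test. Bmf (ENSRNOG00000007529) encodes a protein held at the actin cytoskeleton that frees effectors by occupying guardians, and links loss of cell attachment to death. It had 22.3, 18.3 and 18.2 CPM in control, 13.6, 12.2 and 14.7 CPM in CIAKI and 23.1, 23.6 and 15.7 CPM in icariin libraries. All CIAKI libraries were below all others, the nearest being icariin library 3. Means were 19.6 ± 2.34, 13.5 ± 1.24 and 20.8 ± 4.44 CPM (SD, n = 3). Bmf, a gene that promotes death, fell after contrast by 0.50 on the log2 scale (SE 0.16, adjusted p = 0.0339) and was higher by 0.57 in icariin than in CIAKI kidneys (SE 0.16, adjusted p = 0.0218). The call against control was lost without control library 1, 2 or 3 or CIAKI library 1 or 2 (adjusted p = 0.116, 0.0578, 0.0553, 0.0711 and 0.094). The call between icariin and CIAKI was lost without CIAKI library 1 or 2 or icariin library 1 or 2 (adjusted p = 0.0504, 0.0642, 0.0753 and 0.08).

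Bid (ENSRNOG00000012439), which caspase-8 cleaves to carry a death receptor signal to the mitochondrion, had 22.3, 24.2 and 17.2 CPM in control, 27.5, 19.8 and 18.6 CPM in CIAKI and 14.5, 17.03 and 16.7 CPM in icariin libraries. All icariin libraries were below all others, while control and CIAKI libraries overlapped. The log2 difference was 0.04 between CIAKI and control (95% interval -0.34 to 0.42, adjusted p = 0.87). It was -0.41 between icariin and CIAKI (95% interval -0.79 to -0.03, adjusted p = 0.081) and -0.37 between icariin and control (95% interval -0.75 to 0.01, adjusted p = 0.508), so neither passed. DESeq2 called the former (adjusted p = 0.0416).

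Bcl2l11 (ENSRNOG00000016551) encodes BIM, a BH3-only protein that binds all guardians. Its values were 13.6, 14.4 and 16.98 CPM in control, 18.1, 13.9 and 10.3 CPM in CIAKI and 15.7, 19.4 and 14.9 CPM in icariin libraries. The 3 groups overlapped, and CIAKI libraries held both the lowest value and the second highest. The log2 differences were -0.11 (95% interval -0.54 to 0.32, adjusted p = 0.679) between CIAKI and control and 0.25 (95% interval -0.18 to 0.68, adjusted p = 0.323) between icariin and CIAKI, and these intervals leave room for changes as large as those of Bcl2. Bik (ENSRNOG00000010359), a BH3-only gene whose protein acts at the endoplasmic reticulum, was covered by 15 to 35 reads per library. It ranged from 0.287 to 0.466 CPM in control, from 0.233 to 0.301 CPM in CIAKI and from 0.166 to 0.495 CPM in icariin libraries, with all 3 ranges overlapping.

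In icariin against control, none of the 7 genes was called by limma, edgeR or DESeq2, and none had an unadjusted limma p below 0.05. The background was low here as well, with 0.628% of all features called. Bax and Bid were lower in every icariin than in every control library, 2 of 7 genes against 19.3% of all features. The log2 difference was -0.000143 for Bcl2 (95% interval -0.28 to 0.28), -0.11 for Bcl2l1 (-0.29 to 0.07), -0.05 for Bak1 (-0.50 to 0.39), 0.07 for Bmf (-0.30 to 0.43) and 0.14 for Bcl2l11 (-0.29 to 0.57). The intervals show how large a difference these 3 against 3 kidneys could have missed, and a p above the threshold does not show that the groups were alike.

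The ratio of Bax to Bcl2, a customary summary of effector against guardian, was computed from CPM within each library, in which sequencing depth cancels. It was 3.79, 3.59 and 3.07 in control, 6.83, 7.04 and 6.63 in CIAKI and 3.27, 2.87 and 3.05 in icariin libraries. CIAKI libraries lay above all others, and icariin and control libraries overlapped. The mean ratio was 3.49 ± 0.371, 6.83 ± 0.203 and 3.06 ± 0.197 (SD, n = 3), which is 1.96 times the control value in CIAKI, and 0.448 times the CIAKI value in icariin. Set against the other guardian, the picture was another: Bax to Bcl2l1 was 0.132 ± 0.0178, 0.116 ± 0.00786 and 0.124 ± 0.00189, and all 3 groups overlapped. The ratio of Bak1 to Bcl2l1 overlapped in all groups as well (0.0811, 0.0764 and 0.0838 on average). No p is given for ratios, since they are built from genes already tested.

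The guardians also differed relative to each other. Bcl2l1 to Bcl2 was 30.3, 23.6 and 26.0 in control, 61.6, 62.4 and 52.9 in CIAKI and 26.7, 23.1 and 24.2 in icariin libraries, with CIAKI above all others. Relative to Bcl2l1, Bmf and Bcl2l11 were lowest in CIAKI. Bmf to Bcl2l1 was 0.1195 ± 0.0119, 0.0520 ± 0.00734 and 0.136 ± 0.0225, and Bcl2l11 to Bcl2l1 was 0.0916 ± 0.0111, 0.0535 ± 0.0115 and 0.110 ± 0.0130 (SD, n = 3). CIAKI libraries did not overlap with control or icariin libraries in either ratio. For Bcl2l11 to Bcl2l1 the icariin and control libraries nearly touched, with 0.09975 as the lowest icariin and 0.09958 as the highest control value. Bcl2l11 itself overlapped in all 3 groups and passed in no comparison, whereas Bcl2l1, the denominator, was highest in CIAKI.

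**Figure D3:**
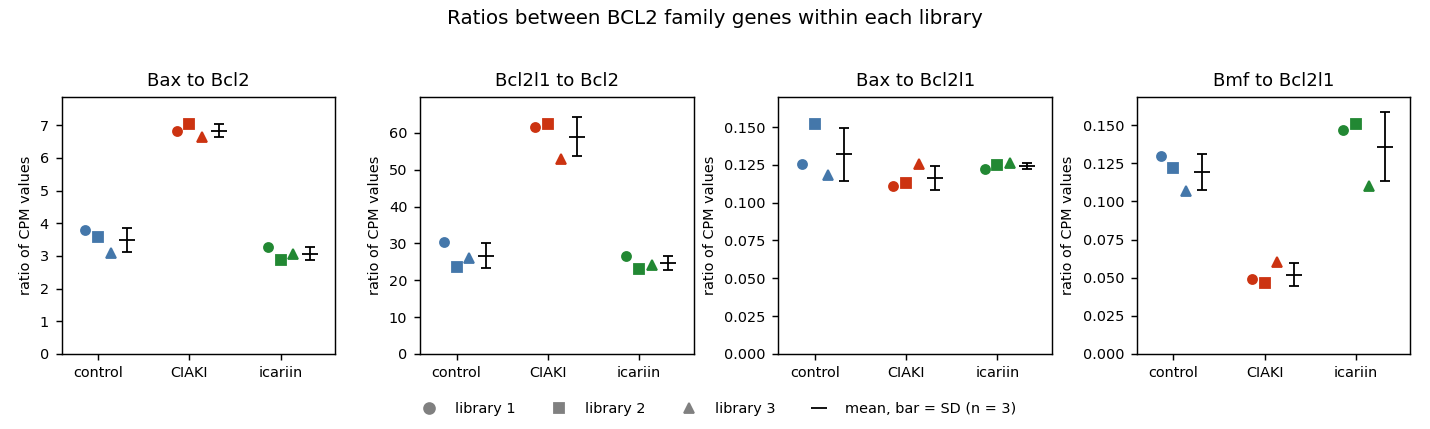
Ratios of CPM values within each library (vertical axes from 0, no unit) by group, with each point 1 library and bars the mean and SD of 3. Bax to Bcl2 and Bcl2l1 to Bcl2 are higher in every CIAKI library than in any other, Bmf to Bcl2l1 is lower, and Bax to Bcl2l1 overlaps in the 3 groups, at means of 0.116 to 0.132.

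Levels of different genes can be compared only per length. The authors' deposited table of 3982 selected mRNAs gives FPKM (fragments scaled to transcript length and library depth) for 4 of the genes, in CIAKI and icariin libraries. In the authors' deposited table, Bcl2l1 was the most abundant of the 4, with 84.8 ± 3.96 FPKM in CIAKI and 50.6 ± 2.16 FPKM in icariin kidneys (SD, n = 3). Bax followed in the authors' deposited table with 24.9 ± 0.609 and 15.8 ± 0.685 FPKM. Next in the authors' deposited table came Bak1 with 8.08 ± 2.37 and 5.21 ± 0.429 FPKM and Bmf with 4.98 ± 0.485 and 7.83 ± 1.58 FPKM. By the authors' deposited table, the ranges of Bak1 and Bmf were 5.61 to 10.3 and 4.55 to 5.51 FPKM in CIAKI, and 4.83 to 5.68 and 6.01 to 8.79 FPKM in icariin, so the effector was above the BH3-only gene in CIAKI and below it in icariin. Within libraries of the authors' deposited table, Bcl2l1 exceeded Bmf 14.6 to 18.9 times in CIAKI and 5.84 to 8.01 times in icariin, while Bcl2l1 exceeded Bax 3.18 to 3.55 times and 3.14 to 3.27 times.

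Beyond the family members described so far, 75 genes of the same pathway in 6 lists were read from the same fit. Of the 65 that were tested, 22 were higher and 6 lower after contrast, and 7 were higher and 26 lower in icariin than in CIAKI kidneys. That is 43.1% and 50.8% called, beside 41.3% and 39.4% of all features. The called genes include Trib3 and Chac1, which reached 1 CPM in CIAKI libraries only. These shares of all features are also the background for the counts of each list below.

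The list of transcription factors and stress regulators was drawn up around BH3-only genes, but not every gene in it acts on them. Its count of calls therefore depends on which genes were put in, and stands beside 41.3% of all features called after contrast. Of its 15 tested genes, 9 were higher after contrast and 6 did not pass (median log2 change 0.53), and 9 were lower in icariin than in CIAKI and 6 did not pass (median -0.57). In both comparisons these 9 include Trib3 and Chac1, which reached 1 CPM in CIAKI libraries only. Trib3 was at 1.99 to 5.37 CPM there, and at most 0.904 CPM in control and 0.906 CPM in icariin libraries. Chac1 was at 1.20 to 6.76 CPM in CIAKI, and at most 0.317 and 0.311 CPM in control and icariin. Both entered the test through the group in which they were highest, so their calls lend the count no support. Myc, which sensitizes cells to death when growth signals are short, rose from 7.26 ± 0.938 to 76.5 ± 31.1 CPM (log2 change 3.16, adjusted p = 7.79e-05) and was 8.53 ± 2.15 CPM in icariin kidneys. Atf4, a factor of the integrated stress response, rose by 1.34 (adjusted p = 0.000244). Myc and Atf4 were lower in icariin than in CIAKI, by log2 differences of -2.98 and -1.40 (adjusted p = 0.000128 and 0.000235).

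Other BCL2 homologues moved in both directions. Bcl2a1, a guardian made mainly by blood cells, fell from 2.25 ± 0.137 to 0.847 ± 0.417 CPM after contrast (log2 change -0.84, adjusted p = 0.0133), in the libraries in which the lymphocyte markers summed to the lowest levels, whose part in the fall was not tested. It was 1.34 ± 0.514 CPM in icariin kidneys (0.34 against CIAKI, adjusted p = 0.238). The remaining tested guardians did not pass in either comparison, with log2 changes after contrast of -0.13 for Bcl2l2 and -0.06 for Bcl2l12. Of 7 other effectors and BH3-only genes, 2 were higher and 1 lower after contrast. Bok, a relative of the effectors, fell from 13.5 ± 1.87 to 7.80 ± 1.51 CPM (-0.73, adjusted p = 0.0127) and was 13.8 ± 2.70 CPM with icariin (0.74 against CIAKI, adjusted p = 0.0124). Bcl2l14 rose by 0.65 (adjusted p = 0.00619) and did not pass between icariin and CIAKI (-0.16, adjusted p = 0.416), whereas Bcl2l13, a mitochondrial homologue, rose by 0.31 (adjusted p = 0.0202) and was lower with icariin by -0.32 (adjusted p = 0.0197).

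Proteins that bind or modify BCL2 proteins formed a list of 17 tested genes, of which 5 were higher and 1 lower after contrast, and 3 were higher and 7 lower in icariin than in CIAKI. The share called was below that of all features after contrast (41.3%) and above it between icariin and CIAKI (39.4%). Bag1, a co-chaperone that binds BCL2, rose by 0.64 (adjusted p = 0.00246). Huwe1, a ubiquitin ligase that marks MCL1 for breakdown, rose by 0.29 (adjusted p = 0.00683), and Mtch2, the mitochondrial receptor of cleaved BID, by 0.23 (adjusted p = 0.0129). In icariin kidneys these 3 were lower than in CIAKI by -0.66, -0.30 and -0.25 (adjusted p = 0.00245, 0.00565 and 0.0102).

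Downstream of the pore, 14 apoptosome and caspase genes were tested, of which 2 were higher and 2 lower after contrast, then 2 higher and 4 lower in icariin against CIAKI. After contrast the share called was below that of all features (41.3%), and between icariin and CIAKI it was near that share (39.4%). Cycs, which encodes cytochrome c, fell from 63.7 ± 13.0 to 32.9 ± 1.91 CPM (log2 change -0.91, adjusted p = 0.000981) and was 47.8 ± 2.77 CPM with icariin (0.53, adjusted p = 0.0143). Birc5, encoding the mitotic inhibitor of apoptosis survivin, fell by 0.75 (adjusted p = 0.00462) and was higher with icariin by 0.47 (adjusted p = 0.0371).

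Upstream of Bid, 9 death receptor pathway genes were tested, of which 4 were higher and 1 lower after contrast, and 1 higher and 5 lower with icariin against CIAKI. Tnfrsf1a, the main receptor of tumour necrosis factor, rose by 1.37 (adjusted p = 0.00105), and Ripk1, the kinase it recruits, by 0.50 (adjusted p = 0.00199). Tnfsf10, the death ligand TRAIL, fell by 0.96 (adjusted p = 0.000541). With icariin the log2 differences from CIAKI were -1.43, -0.51 and 0.55 (adjusted p = 0.000972, 0.00198 and 0.00823).

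**Figure D4:**
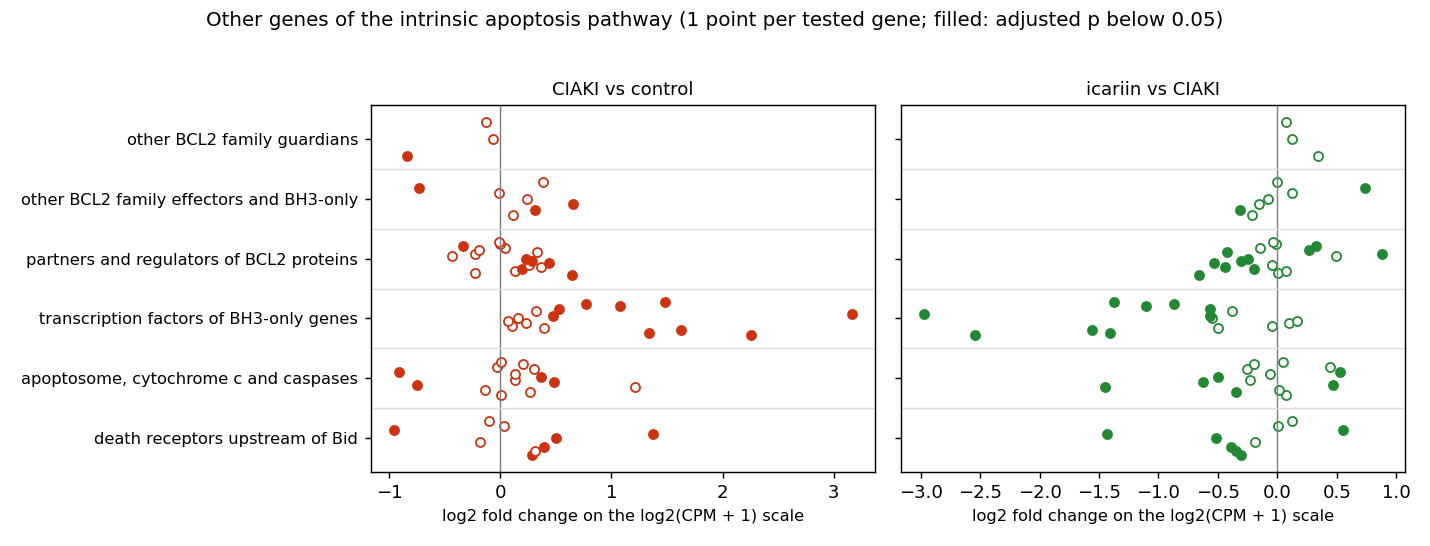
Log2 fold changes on the log2(CPM + 1) scale (horizontal axes) of 65 tested apoptosis pathway genes in 6 lists, 1 point per gene, filled where the adjusted p was below 0.05, for CIAKI against control (left) and icariin against CIAKI (right). In the list of transcription factors and stress regulators, 9 points are filled to the right of 0 on the left side and 9 to the left of 0 on the right side. Among them on both sides are Trib3 and Chac1, which reached 1 CPM in CIAKI libraries only.

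Likeness of profile was measured as the root mean square difference of centred log2 values over the 9 libraries, among 13422 named genes, with 0 for the same profile. The nearest genes were Mmadhc (0.0513) and RGD1311164 (0.0552) for Bcl2, Rnf10 (0.0508) and Eif3a (0.0539) for Bcl2l1, Mettl21a (0.0588) and Cdk2ap1 (0.0623) for Bax, Eva1b (0.0937) and Dyrk1b (0.102) for Bmf, and the carboxypeptidase gene Cpm (0.0896) and Mrgbp (0.0946) for Bak1. For comparison, the profiles of Bcl2, Bcl2l1, Bax, Bmf and Bak1 themselves departed from a flat line by 0.20, 0.35, 0.28, 0.31 and 0.34. Bcl2l1 and Bax thus had closer neighbours, relative to their own movement, than Bmf and Bak1. Eif3a, a subunit of a translation initiation factor, had mean values of 217, 345 and 199 CPM in control, CIAKI and icariin kidneys.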

How the data were processed

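Kidney RNA of 9 rats (3 control, 3 CIAKI, 3 icariin) was sequenced from TruSeq libraries of total RNA, per the labels' protocols, and the series design names separate rats. Bowtie 0.12.2 and build mm8 are named per the submitters' processing notes. That build is of the mouse, while the identifiers are rat Ensembl genes. Not given in the sources used here are the counter, the strand setting and the annotation. The authors deposited CPM for 36267 features (22050 Ensembl genes, 14217 assembled genes). All values were whole multiples of 1 read per library, within 0.1 read for 100% of values, so that reads could be recovered, 64380578 to 90398405 per library. The authors also deposited read counts and FPKM of 3982 selected mRNAs, and all 23850 counts compared equalled the recovered reads.

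The 16731 features that reached 1 CPM in 3 or more libraries entered limma 3.58.1 (R 4.3.3) on log2(CPM + 1), with an intensity trend, group as factor and all 9 libraries, two-sided, and Benjamini-Hochberg adjustment over all features at 0.05. A fold change on this scale understates the change of low genes. Ratios are descriptions. Alternatives were other pseudocounts, filters, scalings and sample sets, a replicate block, each library left out, and edgeR 4.0.16 and DESeq2 1.42.0 on the recovered reads. Scripts were tested on simulated data. Motifs were searched as exact letters in RefSeq GRCr8 promoters.

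The genes and lists were chosen with earlier results of these data known. Of each other pathway list, the text names the 3 tested genes with the smallest p in CIAKI against control, except 2 that are not reported here, and for likeness the 2 nearest genes of each called member. The tables of circRNAs, lncRNAs and miRNAs were not used here.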

Additional observations from a re-analysis of the deposited data

How the results depend on the processing

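Each of 21 single-gene results was recomputed under 22 alternative settings. Of the 462 values, 404 kept direction and call, 37 lost the call, 7 gained it and 14 changed sign, and the cause of these changes was not tested. Without a filter on low values, 2 family genes were called after contrast and 3 between icariin and CIAKI, and with only the 2 groups compared 3 were called between icariin and CIAKI. With 1 library left out, family calls ranged from 2 to 5 after contrast, from 2 to 5 between icariin and CIAKI, and stayed at 0 between icariin and control. Over all features, calls then ranged from 5499 to 6849, from 5152 to 6215 and from 30 to 130. The last range is set against 105 and was 38, 31 and 32 without control library 1, 2 or 3 and 60, 30 and 41 without icariin library 1, 2 or 3. Between icariin and control, 52 features were called without the filter and 523 by DESeq2. The log2 difference of the Bax to Bcl2 ratio, with 1 library left out, was 0.89 to 1.04 after contrast, -1.21 to -1.11 between icariin and CIAKI and -0.27 to -0.12 between icariin and control.

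Signs changed only in results that were not called. After contrast, Bid was -0.029 under upper-quartile scaling. With 1 library left out, Bid ranged from -0.12 (without CIAKI library 1) to 0.14, with -0.097 without control library 3, and Bcl2l11 from -0.29 to 0.084 (without CIAKI library 3). Between icariin and control, Bcl2 was 0.019 with quantile normalization, 0.0044 with TMM scaling and 0.0046 with edgeR. With 1 library left out it ranged from -0.058 to 0.036, being above 0 without control library 2 or 3 or icariin library 1 or 3. Bmf then ranged from -0.033 to 0.25, below 0 without icariin library 1 or 2, and Bak1 from -0.11 to 0.0059, above 0 without icariin library 3. Outside the left-out libraries, the Bak1 call between icariin and CIAKI was lost without the filter (adjusted p = 0.0722), with upper-quartile scaling (0.0552), with the 2 groups alone (0.0844) and without the intensity trend (0.05). The Bcl2 calls were lost without the filter (0.061 and 0.0652) and with the 2 groups alone (0.0506 and 0.0661), and the Bmf call after contrast without the filter (0.0543).

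Library numbers recur in each group. Deviations from the group means correlated at -0.0349 to 0.0813 over the 9 same-numbered pairs and at -0.102 to 0.0364 over the 18 other pairs. No same-numbered pair was above 0.1, the minimum set for pairing, so the numbers were not taken as pairs. With the number as a replicate block, 6678, 6314 and 73 features and 4, 4 and 0 family genes were called. Under the block Bcl2 was no longer called (adjusted p = 0.0512 and 0.0532) and Bak1 was called after contrast (adjusted p = 0.0314). Depth limits Bik, at 15 to 35 reads.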

Other observations

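The values of some pathway genes outside the naming rule, chosen after their values were seen, are given here. Pim3, a kinase that phosphorylates BAD, was 99.9 ± 13.7 CPM in control, 86.1 ± 17.9 CPM in CIAKI and 157 ± 2.90 CPM in icariin kidneys (SD, n = 3). Its log2 difference was 0.88 between icariin and CIAKI (limma, adjusted p = 0.00157) and 0.66 between icariin and control (95% interval 0.34 to 0.98), which did not pass (adjusted p = 0.0964). Foxo3, a transcription factor of Bcl2l11, was 48.3 ± 1.73, 57.1 ± 6.16 and 61.1 ± 1.39 CPM, with a difference of 0.33 between icariin and control that did not pass (adjusted p = 0.158). The BH3-only gene Pmaip1 had wide ranges of 2.03 to 7.39, 3.56 to 7.25 and 3.27 to 6.77 CPM in control, CIAKI and icariin kidneys. The mitophagy receptors Bnip3 and Bnip3l, at 192 ± 24.7 and 135 ± 1.06 CPM in control kidneys, passed in none of the 3 comparisons.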
